A study of Mus musculus with 12 samples.

Results

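Messenger RNA of 8 enzymes of the tricarboxylic acid (TCA) cycle and of glutamine entry was followed in L929, an established mouse fibroblast line, across 12 RNA sequencing libraries. The members were chosen by symbol: Glud1, Cs, Idh2, Idh3a, Ogdh, Dlst, Suclg1 and Fh1. All 8 were found among the 56287 entries of the deposited count table, and all 8 were among the 14694 genes that passed the filter on low counts. The libraries form 4 groups of 3, and the cells of every group are labelled wild type. Mock cells carried no labelled treatment, and whether they received the transfection reagent is not stated. The HT-DNA group was transfected with HT-DNA, given with a Lipofectamine reagent, and harvested after 6 h. The HT-DNA+AOA group received AOA, taken here to be the compound that the series text abbreviates and gives at 0.5 mM, from 1 h before the same transfection. The HT-DNA+AOA+Asp group received in addition Asp at 20 mM. HT-DNA usually stands for herring testis DNA, a trigger of cytosolic DNA sensing, AOA for aminooxyacetate, an inhibitor of aminotransferases, and Asp for aspartate, but the labels spell out none of these. Every group with AOA also had HT-DNA, so its effects on the response to DNA and its effects in cells without DNA cannot be told apart. L929 is a single line, and separate cultures are not stated. The p-values thus set group differences only against the spread between these libraries, and that spread may be technical.

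The TCA cycle oxidises acetyl groups in the mitochondrial matrix and passes the electrons to the respiratory chain. It also supplies carbon skeletons: oxaloacetate is the precursor of aspartate, and citrate that of fatty acids. In cultured cells glutamine is a major source of carbon for the cycle. It is turned into glutamate and then into alpha-ketoglutarate, either by glutamate dehydrogenase or by aminotransferases, which move the amino group to a keto acid. Cells in which aminotransferases are inhibited thus keep glutamate dehydrogenase as the other route, and added aspartate bypasses the aspartate aminotransferase reaction.

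Library totals ran from 19944571 to 27309291 estimated counts, and each member had between 1741 and 14132 estimated counts in a library. Levels are CPM, estimated counts scaled to library size after TMM normalisation, and a value after ± is the SD over n = 3 libraries. A gene was called at an edgeR adjusted p under 0.05, adjusted over all 14694 genes tested. Within a group the SD of a member was 0.349% to 5.38% of its mean. Among 10 fibroblast markers 7 were tested, led by Vim and S100a4, while Thy1, Lum and Dcn had 28.9, 3 and 16 estimated counts over all 12 libraries. The summed fibroblast markers were at 5323 to 5466 CPM in mock, 5395 to 6004 under HT-DNA, 4901 to 5039 with AOA and 5441 to 5559.5 with AOA and Asp. The 6 macrophage and leukocyte markers summed to 286 to 309.8, 246 to 253, 319 to 360.2 and 245 to 256 CPM in the same order, almost all of it Cd68, with Adgre1 at 0 counts and Ptprc at 3 over all libraries. Summed epithelial markers stayed at or under 2.43 CPM and endothelial markers at or under 6.81 CPM. The fibroblast sum hides moves of single markers. When AOA was added to HT-DNA, 5 of the 7 tested were called lower and 1 higher, where 52.0% of all genes were called. Col1a2 fell there from 125 ± 5.73 to 55.8 ± 6.20 CPM, and Fn1 rose from 39.9 ± 4.39 to 71.5 ± 1.01 CPM. The part of the markers in the results was not tested. In bulk RNA, fewer cells of a kind and less RNA per cell cannot be told apart.

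The promoters of 3 members that moved together and of 1 member that did not are shown first, because Glud1, Dlst and Ogdh rose with AOA and fell with Asp while Idh2 passed no test. Of the 8 members, 7 had an entry in the RefSeq promoter table of build GRCm38.p6. Each entry runs from 250 bases before to 50 bases after the annotated start. Glud1 lies on the plus strand at chr14:34310477-34310776, Dlst on the plus strand at chr12:85110583-85110882, Ogdh on the plus strand at chr11:6291347-6291646 and Idh2 on the minus strand at chr7:80115301-80115600. Ogdh has 6 entries, of which the most upstream is printed. Capitals mark matches, on either strand, to 5 short motifs: GCATGC (core of the NRF1 motif), AAGGTCA (ERR), CCGGAAG (ETS), GGGCGG (Sp1 family) and TGACGTC (CREB).
Glud1: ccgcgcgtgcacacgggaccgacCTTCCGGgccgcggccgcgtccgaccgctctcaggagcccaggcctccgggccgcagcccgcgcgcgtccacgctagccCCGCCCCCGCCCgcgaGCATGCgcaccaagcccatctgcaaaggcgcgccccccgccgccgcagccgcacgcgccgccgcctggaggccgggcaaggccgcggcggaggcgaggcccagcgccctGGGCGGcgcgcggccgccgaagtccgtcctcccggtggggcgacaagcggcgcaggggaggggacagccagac
Dlst: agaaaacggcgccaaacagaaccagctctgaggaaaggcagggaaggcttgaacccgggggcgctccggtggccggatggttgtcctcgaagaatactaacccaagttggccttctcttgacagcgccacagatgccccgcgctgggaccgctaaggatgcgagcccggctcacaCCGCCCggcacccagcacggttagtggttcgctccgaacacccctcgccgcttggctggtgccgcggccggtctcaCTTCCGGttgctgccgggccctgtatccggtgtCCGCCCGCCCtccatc
Ogdh: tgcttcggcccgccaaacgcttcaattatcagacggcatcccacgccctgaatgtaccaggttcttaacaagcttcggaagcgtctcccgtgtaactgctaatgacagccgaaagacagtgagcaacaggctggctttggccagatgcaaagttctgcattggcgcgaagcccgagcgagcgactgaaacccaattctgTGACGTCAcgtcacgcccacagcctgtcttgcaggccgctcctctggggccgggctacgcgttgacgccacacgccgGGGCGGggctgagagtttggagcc
Idh2: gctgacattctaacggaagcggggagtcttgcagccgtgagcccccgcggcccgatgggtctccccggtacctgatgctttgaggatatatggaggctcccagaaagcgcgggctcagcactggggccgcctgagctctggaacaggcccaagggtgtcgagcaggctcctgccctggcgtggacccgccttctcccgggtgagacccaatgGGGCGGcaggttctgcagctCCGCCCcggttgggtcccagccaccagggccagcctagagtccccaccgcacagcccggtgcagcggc

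In these windows Glud1 held 3 matches to the Sp1 letters, 1 to the ETS letters and 1 to the NRF1 core. Dlst held 3 Sp1 matches and 1 ETS match, which begins just after the start site. Ogdh held 1 Sp1 match and 2 CREB matches, which overlap each other on opposite strands. Idh2 held 2 Sp1 matches. Of the others, Cs held 3 Sp1 matches, Fh1 held 1 and Suclg1 held none of the 5 motifs, and no window held the ERR letters. Among all 32851 promoter entries of that length, 35.7% held the Sp1 letters, 8.86% the ETS letters, 7.93% the NRF1 core, 4.72% the ERR letters and 3.21% the CREB letters. GC content was 81.0% in the Glud1 window, 65.7% in Dlst, 59.7% in Ogdh and 68.3% in Idh2, with a median of 52.7% over all entries. Of these 5 motifs, none was shared by the windows of Glud1, Dlst and Ogdh and missing from that of Idh2. Only the most upstream Ogdh entry was searched, Idh3a had no entry, and other motifs were not searched.

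To compare levels between genes, CPM were divided by the gene length deposited with the counts. In mock libraries Cs stood at 175 ± 0.973 CPM per kilobase, followed by Idh2 at 156 ± 5.95 and Dlst at 123 ± 1.88. Glud1 was at 64.1 ± 2.48 and Suclg1 at 54.1 ± 2.83 CPM per kilobase. Fh1 at 46.2 ± 1.47 and Idh3a at 45.97 ± 0.692 overlapped and were not separable, and Ogdh was lowest at 35.5 ± 1.57. With AOA the levels per kilobase of Cs, Dlst and Idh2 were 189 ± 4.79, 186 ± 3.66 and 158 ± 6.68. Dlst thus came within the spread of Cs there, where it had been well under it in mock.

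**Figure D1:**
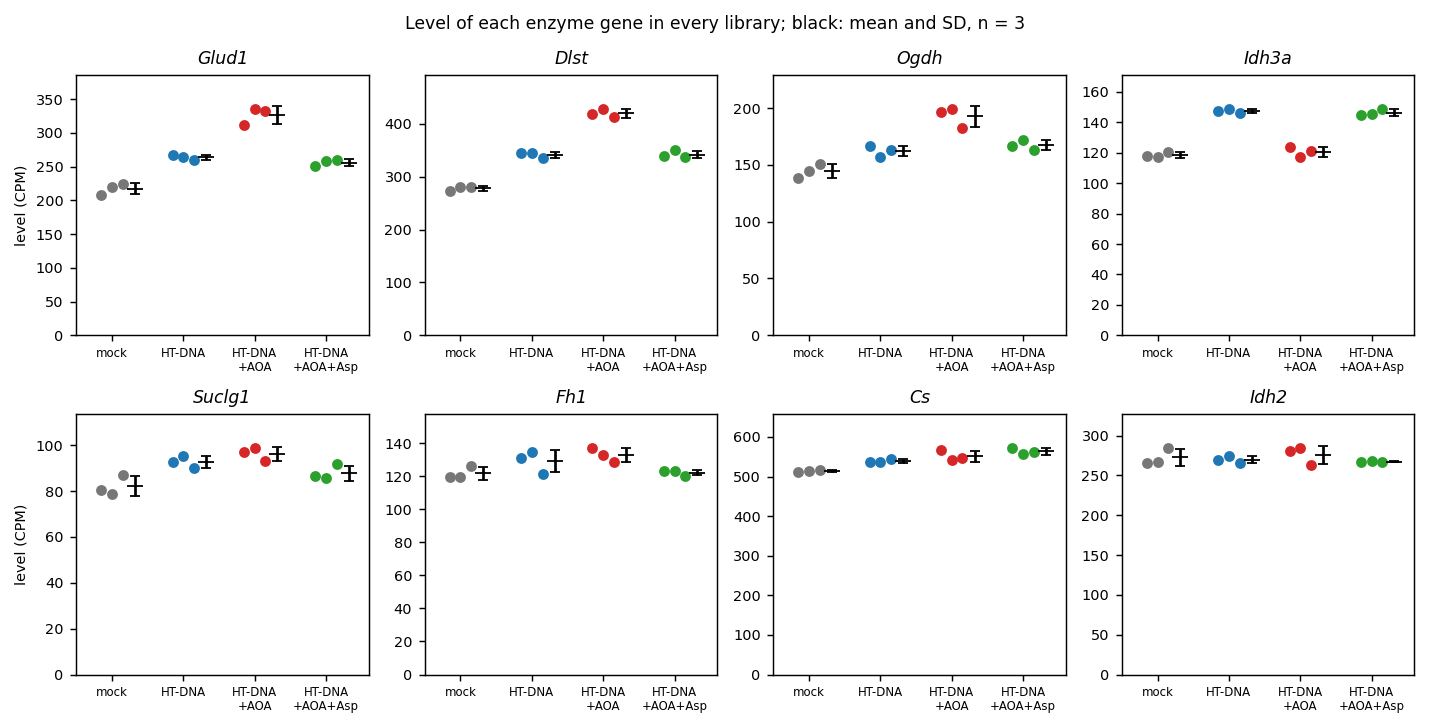
Level of each of the 8 enzyme genes in CPM (y axis, from 0) in every library of the 4 groups (x axis), with points for libraries and black marks for the mean and SD of n = 3. Glud1 and Dlst peak with AOA at means of 327 and 420.0 CPM, Idh3a dips there to 121 CPM, and Idh2 lies between 262 and 285 CPM in all 12 libraries.

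Glutamate dehydrogenase, the product of Glud1, opens the route from glutamate to alpha-ketoglutarate. Its mRNA was at 208, 219.8 and 224 CPM in mock and at 268, 264 and 259.7 CPM under HT-DNA. It reached 312, 336 and 333 CPM with AOA and was at 251, 258 and 259 CPM with AOA and Asp. The HT-DNA+AOA libraries were the 3 highest, the mock libraries the 3 lowest, and neither set overlapped another group. Glud1 rose by 21.4% under HT-DNA (log2 fold change 0.28 with SE 0.043, edgeR adjusted p = 1.50e-05). With AOA it rose by a further 23.9% over HT-DNA (log2 fold change 0.31 with SE 0.042, edgeR adjusted p = 2.34e-06). Adding Asp lowered it (log2 fold change -0.35 with SE 0.042, edgeR adjusted p = 3.58e-07). Against HT-DNA alone the group with AOA and Asp differed by -0.04 (SE 0.042, edgeR adjusted p = 0.522), with a 95% interval from -8.70% to 3.17%. In order of level, mock was below HT-DNA+AOA+Asp (log2 difference 0.24, SE 0.043, edgeR adjusted p = 0.000179), the latter was not separated from HT-DNA by the test, and HT-DNA+AOA was on top.

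Citrate synthase, encoded by Cs, condenses acetyl-CoA with oxaloacetate and starts the cycle. Cs had the highest level of the 8 genes and moved little. Its levels were 510.3, 513 and 516 CPM in mock, 537, 537 and 545 under HT-DNA, 568, 541 and 546 with AOA, and 572, 556 and 563 with AOA and Asp. All 9 libraries with HT-DNA lay above the mock libraries. The difference of HT-DNA from mock, 0.07 on the log2 scale (SE 0.038), did not pass (edgeR adjusted p = 0.133). Adding AOA to HT-DNA gave 0.03 (SE 0.038, edgeR adjusted p = 0.512), with a 95% interval from -3.21% to 7.90%. Adding Asp to HT-DNA and AOA gave another 0.03 (SE 0.038, edgeR adjusted p = 0.509). Only the comparisons of both AOA groups with mock passed for Cs: HT-DNA+AOA was higher by 0.10 (SE 0.038, edgeR adjusted p = 0.0210) and HT-DNA+AOA+Asp by 0.14 (SE 0.038, edgeR adjusted p = 0.00795). The first of these calls held under 7 of 13 alternative settings and the second under 12. Among other settings, the first was lost when mock replicate 1, mock replicate 2 or HT-DNA+AOA replicate 1 was left out (edgeR adjusted p = 0.0598, 0.0525 and 0.0842).

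Isocitrate is oxidised to alpha-ketoglutarate by enzymes that use different cofactors. Idh2 encodes the mitochondrial enzyme that reduces NADP, and Idh3a the catalytic subunit of the enzyme that reduces NAD. Idh3a was at 118, 117 and 121 CPM in mock, 148, 149 and 146 under HT-DNA, 124, 117 and 121 with AOA, and 145, 145 and 149 with AOA and Asp. The libraries fell into a low set, made of mock and HT-DNA+AOA, and a high set, made of HT-DNA and HT-DNA+AOA+Asp, with no overlap between the sets. Idh3a rose by 24.4% under HT-DNA (log2 fold change 0.32 with SE 0.040, edgeR adjusted p = 1.50e-06). It fell with AOA (log2 fold change -0.29 with SE 0.040, edgeR adjusted p = 2.69e-06) and rose by 21.3% when Asp was added (log2 fold change 0.28 with SE 0.040, edgeR adjusted p = 4.41e-06). HT-DNA+AOA differed from mock by 0.03 (SE 0.040, edgeR adjusted p = 0.611), and HT-DNA+AOA+Asp from HT-DNA by -0.01 (SE 0.040, edgeR adjusted p = 0.870, 95% interval from -6.33% to 5.04%). Idh3a was the only one of the 8 members that fell with AOA and the only one that rose with Asp.

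Idh2 showed no call in any of the 6 comparisons. Its levels were 266, 267 and 285 CPM in mock, 269, 274 and 266 under HT-DNA, 281, 284 and 262 with AOA, and 266, 268 and 267 with AOA and Asp. The groups overlapped throughout. The 95% interval of its difference ran from -6.84% to 5.14% for HT-DNA against mock, from -3.79% to 8.58% when AOA was added and from -8.77% to 2.99% when Asp was added. Per base of gene length, Idh2 counts were 3.40 ± 0.0806 times those of Idh3a in mock, 2.70 ± 0.0159 times under HT-DNA, 3.38 ± 0.188 times with AOA and 2.70 ± 0.0404 times with AOA and Asp.

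Ogdh and Dlst encode the first and second components of the alpha-ketoglutarate dehydrogenase complex, which turns alpha-ketoglutarate into succinyl-CoA. Dlst, the component that carries the lipoyl arm, was at 273, 281 and 280.0 CPM in mock, 345, 344 and 335 under HT-DNA, 418, 429 and 413 with AOA, and 339, 349.7 and 337 with AOA and Asp. The HT-DNA+AOA libraries stood apart at the top and the mock libraries at the bottom, while the HT-DNA and HT-DNA+AOA+Asp libraries overlapped. Dlst rose by 22.8% under HT-DNA (log2 fold change 0.30 with SE 0.038, edgeR adjusted p = 1.99e-06) and by 23.1% with AOA over HT-DNA (log2 fold change 0.30 with SE 0.038, edgeR adjusted p = 9.32e-07). It fell when Asp was added (log2 fold change -0.30 with SE 0.038, edgeR adjusted p = 9.62e-07). HT-DNA+AOA exceeded mock by 51.2% for Dlst and by 50.5% for Glud1. The difference of HT-DNA+AOA+Asp from HT-DNA was 0.157% for Dlst, with a 95% interval from -5.22% to 5.84% (edgeR adjusted p = 0.978).

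Ogdh, the decarboxylating component, followed the same order of groups as Dlst with smaller steps. It was at 138, 145 and 151 CPM in mock, 166, 157 and 163 under HT-DNA, 197, 199.6 and 182 with AOA, and 167, 172 and 163 with AOA and Asp. No HT-DNA+AOA library overlapped another group, and no mock library did. Ogdh rose under HT-DNA (log2 fold change 0.16 with SE 0.046, edgeR adjusted p = 0.00644), rose with AOA (0.25, SE 0.046, adjusted p = 9.29e-05) and fell with Asp (-0.21, SE 0.046, adjusted p = 0.000666). Its counts per base stood at 0.289 ± 0.00950 of those of Dlst in mock, 0.264 ± 0.00915 under HT-DNA, 0.255 ± 0.00830 with AOA and 0.271 ± 0.00207 with AOA and Asp. Estimated counts of Ogdh were not whole in 12 of 12 libraries and those of Suclg1 in 11, as happens where reads are divided among entries, so both levels carry that uncertainty.

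Suclg1 encodes the alpha subunit of succinyl-CoA ligase, which makes succinate and a nucleoside triphosphate. It was at 80.6, 78.8 and 86.96 CPM in mock, 92.9, 95.1 and 90.2 under HT-DNA, 96.96, 98.9 and 93.05 with AOA, and 86.4, 85.6 and 91.7 with AOA and Asp. Suclg1 rose under HT-DNA (log2 fold change 0.18 with SE 0.049, edgeR adjusted p = 0.00587), and the HT-DNA libraries lay above all mock libraries. The difference on adding AOA, 0.05 (SE 0.048), did not pass (edgeR adjusted p = 0.369), and the groups overlapped. On adding Asp it fell (log2 fold change -0.13 with SE 0.049, edgeR adjusted p = 0.0270). That call was lost without HT-DNA+AOA replicate 1 (edgeR adjusted p = 0.0569), without HT-DNA+AOA replicate 2 (0.0887), and without HT-DNA+AOA+Asp replicate 1 (0.0934) or 2 (0.109). It was lost too with library size alone (0.203) and with no filter on low counts (0.0831).

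Fh1 encodes fumarase, which hydrates fumarate to malate. It was at 119.6, 119 and 126 CPM in mock, 131, 135 and 122 under HT-DNA, 137, 133 and 129 with AOA, and 123, 123 and 120.3 with AOA and Asp. HT-DNA and mock overlapped, at a log2 difference of 0.09 (SE 0.046, edgeR adjusted p = 0.139), although the difference passed without HT-DNA replicate 3 (0.13, edgeR adjusted p = 0.0287). Adding AOA gave 0.04 (SE 0.046, edgeR adjusted p = 0.493). Fh1 fell when Asp was added (log2 fold change -0.12 with SE 0.046, edgeR adjusted p = 0.0287). The call was lost without either of HT-DNA+AOA replicates 1 and 2 (edgeR adjusted p = 0.104 and 0.0541) and without HT-DNA+AOA+Asp replicate 1, 2 or 3 (0.0594, 0.0589 and 0.0975). Library size alone and no filter on low counts also ended it (0.228 and 0.0925).

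**Figure D2:**
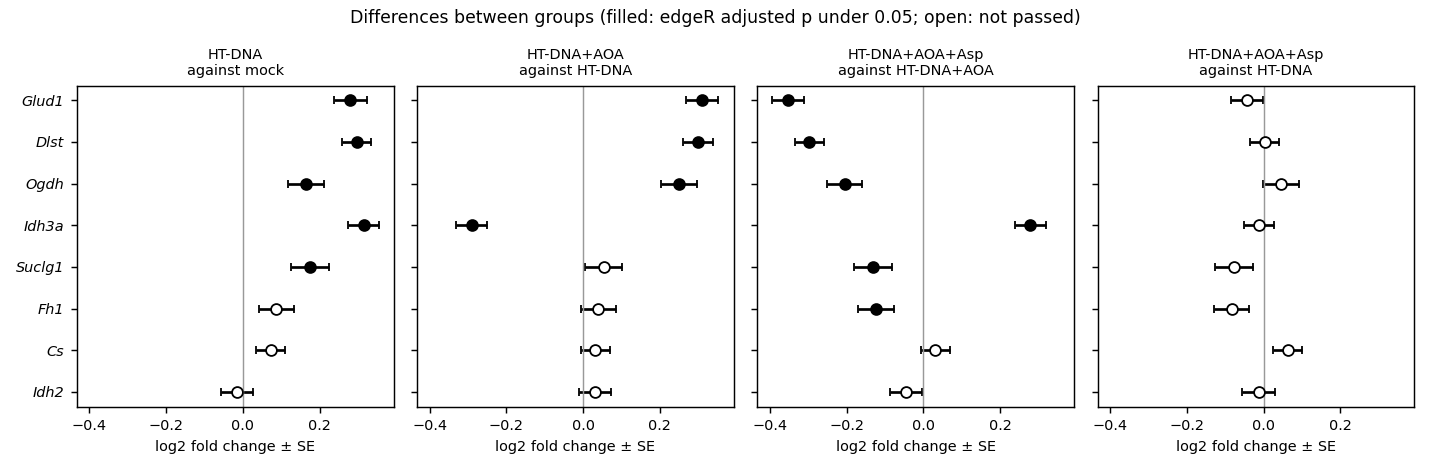
Log2 fold change with SE (x axis) of the 8 genes (y axis) in 4 comparisons, filled where the edgeR adjusted p was under 0.05. In the second panel Glud1, Dlst and Ogdh lie at 0.25 to 0.31 and Idh3a at -0.29, the third panel shows the opposite signs, and no point is filled in the last.

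The contrast of HT-DNA and mock addresses the response of these cells to transfection with HT-DNA. Whether mock cells received the reagent is not stated, so effects of the DNA and of the reagent cannot be told apart. Of the 8 members 5 rose (Glud1, Idh3a, Ogdh, Dlst and Suclg1), 0 fell and 3 missed the threshold. Their median log2 fold change was 0.17. Over all genes tested 41.0% were called, 21.2% higher and 19.8% lower, with a median of -0.01. With library size alone as scaling, the share of higher genes among the called ones was 39.3% in place of 51.7%. Under that scaling Ogdh at 0.10 (edgeR adjusted p = 0.0652) and Suclg1 at 0.11 (0.0571) no longer passed, which left 3 members called.

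The contrast of HT-DNA+AOA and HT-DNA addresses the changes brought by AOA in DNA-treated cells. Of the 8 members 3 rose, 1 fell and 4 missed the threshold, and their median was 0.05. Calls took 52.0% of all genes, 25.5% higher and 26.5% lower, with a median of 0.00, so the number of members called was near the background. The same 4 members were called under each of the 13 alternatives tried for this comparison.

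Asp was added to HT-DNA and AOA to ask what it changed in the presence of AOA. No group had Asp without AOA, so a reversal of AOA effects and effects of Asp itself cannot be told apart. Here 1 member rose, 5 fell and 2 missed the threshold, and the median was -0.13. The background was 54.7% of genes called, 28.3% higher and 26.4% lower, with a median of 0.00. Both this comparison and the preceding one use the HT-DNA+AOA libraries, so opposite signs in them are not independent. The 3 members that had risen with AOA fell with Asp, and the 1 that had fallen rose.

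HT-DNA+AOA+Asp was therefore set directly against HT-DNA, which leaves the HT-DNA+AOA libraries out of the contrast. Here 0 of the 8 members were called by edgeR, 0 had an unadjusted edgeR p under 0.05 and 0 were called by DESeq2. These counts come from the same libraries and are not separate results. The smallest unadjusted p was 0.0855, for Fh1. Over all genes 18.5% were called by edgeR, 10.4% higher and 8.15% lower, and 4686 of 14694 had an unadjusted p under 0.05. Whether 0 of only 8 members lies below these shares was not tested. Member differences ran from -0.08 to 0.06 on the log2 scale. The 95% intervals that reached farthest from 0 ran from -11.7% to 0.884% for Fh1 and from -11.6% to 1.68% for Suclg1.

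Against mock, HT-DNA+AOA had 6 members higher and 0 lower (61.2% of all genes called, 30.4% higher and 30.7% lower). HT-DNA+AOA+Asp had 5 members called against mock, each of them higher, where 33.9% of all genes were called and 18.9% were higher. With library size alone the share of higher genes among those called moved from 49.7% to 37.3% for the first and from 55.8% to 39.0% for the second. The median of all genes shifted by -0.12 in the first. Idh3a went from 0.03 to -0.09 and Idh2 from 0.02 to -0.10, each called lower there, while Dlst, Glud1, Ogdh and Suclg1 stayed called higher. The summed level of the 8 members was 1748 ± 38.4 CPM in mock, 1946 ± 17.9 under HT-DNA, 2117 ± 33.3 with AOA and 1952 ± 4.56 with AOA and Asp, given as a description.

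The other subunits of the same enzymes were read from a list of 12 further cycle enzymes, all of them measured. Under HT-DNA 2 rose, 2 fell and 8 did not pass. With AOA 7 rose, 3 fell and 2 missed the threshold (median 0.17). When Asp was added 2 rose, 6 fell and 4 missed it (median -0.10). In HT-DNA+AOA+Asp against HT-DNA 1 rose and 11 did not pass, the riser being Sdha at 0.15 (SE 0.041, edgeR adjusted p = 0.0130). Over all genes tested, the shares called in these 4 comparisons were 41.0%, 52.0%, 54.7% and 18.5%, in the same order.

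**Figure D3:**
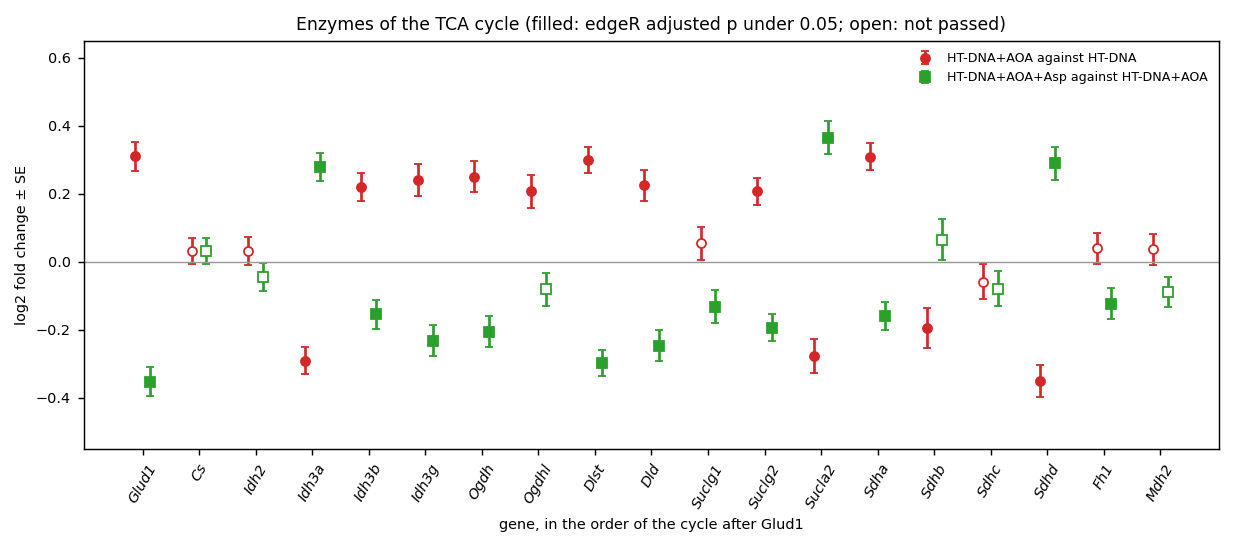
Log2 fold change with SE (y axis) of Glud1 and of enzymes of the cycle in the order of their reactions (x axis), for AOA added to HT-DNA (circles) and for Asp added to both (squares), filled where the edgeR adjusted p was under 0.05. Idh3a at -0.29, Sucla2 at -0.28, Sdhb at -0.19 and Sdhd at -0.35 lie below 0 with AOA, while Dlst at 0.30 and Sdha at 0.31 lie above.

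Subunits of a single enzyme did not always move together with AOA, although Ogdh, Dlst and Dld all rose. Idh3b and Idh3g, the partners of Idh3a, rose with AOA by 0.22 and 0.24 (edgeR adjusted p = 0.000134 and 0.000173) while Idh3a fell. Within a library the ratio of Idh3a to Idh3b counts per base needs no scaling between libraries. It was 0.465, 0.466 and 0.490 in mock, 0.577, 0.549 and 0.557 under HT-DNA, 0.399, 0.400 and 0.383 with AOA, and 0.523, 0.538 and 0.535 with AOA and Asp. All HT-DNA+AOA libraries were below all others, and the mock libraries lay between. The ratio of Idh3a to Idh3g was 0.652 ± 0.00997 in mock, 0.919 ± 0.0263 under HT-DNA, 0.637 ± 0.0316 with AOA and 0.906 ± 0.0486 with AOA and Asp. These pairs were chosen with the values known and carry no test.

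**Figure D4:**
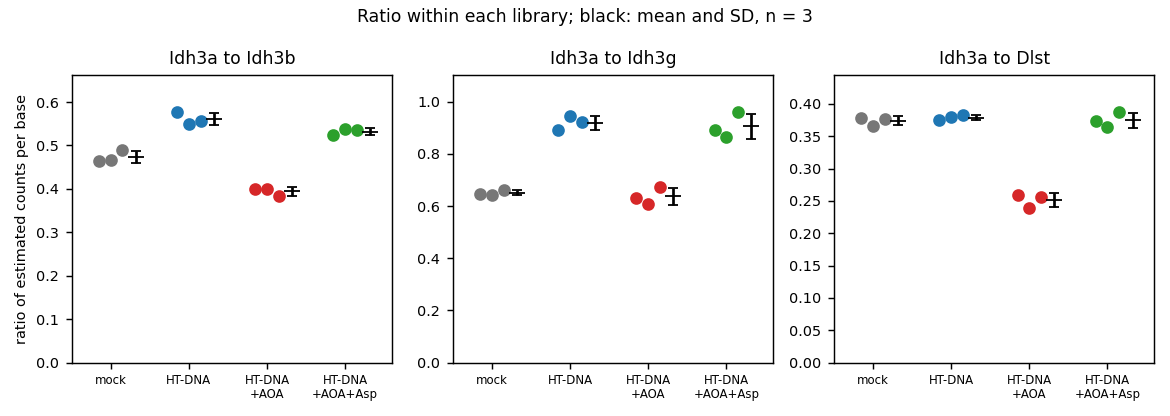
Ratio of estimated counts per base of Idh3a to Idh3b, Idh3g and Dlst (y axes, from 0) in every library of the 4 groups (x axis), with black marks for the mean and SD of n = 3. The ratio to Dlst is 0.252 ± 0.0108 with AOA and 0.374 to 0.379 on average in the other groups.

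Succinyl-CoA ligase pairs Suclg1 with a beta subunit that sets the nucleotide, Sucla2 for ADP or Suclg2 for GDP. Sucla2 fell with AOA from 59.2 ± 1.39 to 48.9 ± 0.409 CPM (log2 fold change -0.28 with SE 0.049, edgeR adjusted p = 5.65e-05) and rose with Asp to 62.9 ± 2.22 CPM (0.37, SE 0.049, adjusted p = 1.56e-06). Suclg2 rose with AOA by 0.21 (edgeR adjusted p = 0.000148). Counts per base of Suclg1 were 1.51 ± 0.119 times those of Sucla2 in mock, 1.59 ± 0.0574 times under HT-DNA, 1.92 to 2.07 times with AOA and 1.42 ± 0.0617 times with AOA and Asp. The HT-DNA+AOA libraries lay above all others, whose highest ratio was 1.64. Dld, the third component of the alpha-ketoglutarate dehydrogenase complex, rose with AOA by 0.23 (edgeR adjusted p = 0.000232) and fell with Asp from 296 ± 9.77 to 249.7 ± 6.29 CPM (log2 fold change -0.25 with SE 0.045, adjusted p = 8.33e-05). Ogdhl, a relative of Ogdh, fell under HT-DNA from 86.2 ± 3.39 to 66.9 ± 0.837 CPM (log2 fold change -0.37 with SE 0.048, edgeR adjusted p = 2.72e-06), where Ogdh rose. Within succinate dehydrogenase, Sdha, the flavoprotein, rose with AOA from 244.9 ± 7.78 to 303 ± 10.02 CPM (0.31, SE 0.041, adjusted p = 1.39e-06), and Sdhd, a membrane anchor, fell from 169.8 ± 7.17 to 133 ± 7.04 CPM (-0.35, SE 0.047, adjusted p = 2.06e-06).

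Around Glud1, the list of glutamine and glutamate entry held 11 genes, of which 10 were measured. Slc25a18, with 16 estimated counts over all libraries, did not pass the filter. Under HT-DNA 5 rose and 2 fell, with AOA 6 rose and 2 fell, and with Asp 1 rose and 5 fell. Beside these counts, 41.0%, 52.0% and 54.7% of all genes tested were called in the same order. Glul, glutamine synthetase, which runs from glutamate to glutamine, rose under HT-DNA from 73.05 ± 2.34 to 142 ± 4.51 CPM (log2 fold change 0.96 with SE 0.045, edgeR adjusted p = 6.93e-13). Slc25a22, a mitochondrial glutamate carrier, rose there from 50.2 ± 0.741 to 75.7 ± 3.22 CPM (0.59, SE 0.056, edgeR adjusted p = 2.71e-08). With AOA the largest changes were in Psat1, phosphoserine aminotransferase, at 0.35 (SE 0.041), Got1, the cytosolic aspartate aminotransferase, at 0.31 (SE 0.045) and Slc1a5, a glutamine importer, at 0.29 (SE 0.045), and their edgeR adjusted p-values were 3.71e-07, 4.45e-06 and 1.03e-05.

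Pyruvate entry was described by 14 genes, all measured. Under HT-DNA 2 rose and 5 fell, with AOA 5 rose and 2 fell, and with Asp 4 rose and 4 fell. Of all genes tested 41.0%, 52.0% and 54.7% were called in the same order, so the counts with AOA and with Asp were near the background. Pdk2, a kinase that inhibits pyruvate dehydrogenase, fell under HT-DNA from 19.1 ± 1.52 to 9.56 ± 0.203 CPM and with AOA to 4.45 ± 0.908 CPM (log2 fold change -1.10 with SE 0.12, edgeR adjusted p = 1.19e-07). Pdk1, another of these kinases, rose under HT-DNA from 27.98 ± 1.51 to 43.5 ± 1.59 CPM (0.64, SE 0.0575, edgeR adjusted p = 1.27e-08). Pdhx, a structural component of the pyruvate dehydrogenase complex, fell with AOA from 37.2 ± 0.980 to 19.6 ± 1.87 CPM (-0.93, SE 0.067, edgeR adjusted p = 1.99e-10) and was at 35.9 ± 0.272 CPM with AOA and Asp.

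Most cytosolic counterparts and exits moved opposite to Glud1 and Dlst with AOA and with Asp. Of 11 measured genes 3 rose and 2 fell under HT-DNA, 2 rose and 8 fell with AOA (median -0.30), and 8 rose and 2 fell with Asp (median 0.25). The shares of all genes called were 41.0%, 52.0% and 54.7% in the same order. Slc25a10, the dicarboxylate carrier, fell with AOA from 69.9 ± 3.52 to 47.4 ± 2.07 CPM (log2 fold change -0.56 with SE 0.056, edgeR adjusted p = 2.75e-08). Aco1, the cytosolic aconitase, fell from 137 ± 4.41 to 104 ± 5.10 CPM (-0.41, SE 0.045, edgeR adjusted p = 1.27e-07). Idh1, the cytosolic relative of Idh2, fell under HT-DNA from 60.98 ± 1.58 to 43.04 ± 1.30 CPM and with AOA to 32.6 ± 2.39 CPM (-0.40, SE 0.057, edgeR adjusted p = 5.06e-06), where Idh2 passed no test. Of all 62 measured genes in the 5 lists around the members, 22 rose and 16 fell with AOA with a median of -0.01, beside 52.0% of all genes called.

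By Pearson correlation of log2 CPM over the 12 libraries, the genes whose profile was most like that of each member were found among 8620 genes of at least 10 CPM on average. The libraries fall into 4 groups, so the coefficient mostly describes the order of the group means and has no p. Among the genes reported here, Glud1 was nearest to Pparg (r = 0.990). Dlst was nearest to Ptpn2 and Ipo4 (r = 0.994 for each), and Ipo4 was at 167 ± 4.23, 214 ± 3.62, 281 ± 4.97 and 212 ± 1.87 CPM in the 4 groups. Ogdh was nearest to Aebp1 and Cers2 (r = 0.970 and 0.969). For Idh3a the nearest were Rcl1 and Vcp (r = 0.986 and 0.984), and Vcp was at 729 ± 7.93, 902 ± 9.59, 705 ± 22.96 and 903 ± 5.99 CPM. Cs was nearest to Chtf18 (r = 0.967), Suclg1 to Tkt (0.943) and Mdh2 (0.936), and Fh1 to Edf1 (0.966) and Sh3bgrl3 (0.935). The lowest best coefficients were those of Idh2, with Rabepk at 0.881 and Rps26 at 0.871.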

How the data were processed

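Per the labels' protocols, TRIzol RNA was sequenced at Majorbio. The authors deposited 1 table of estimated counts, not always whole numbers, with each gene's length in bases. Which aligner, counter, strand setting, annotation and build they used is not given in the sources used here. Estimated counts were rounded. In R 4.3.3, edgeR 4.0.16 kept genes by its filterByExpr rule, with a minimum count of 10 and a minimum total of 15. Libraries were scaled by TMM, and all 12 entered 1 fit with a term per group (8 residual degrees of freedom, common biological coefficient of variation 0.0534). The 6 pairs of groups were tested by edgeR's quasi-likelihood F test with robust fitting, with Benjamini-Hochberg adjustment over 14694 genes. Each SE is the fold change over the root of its F value, and 95% intervals from the moderated degrees of freedom. The fit was tested on simulated data. Replicates differed by 2.15 to 7.96 chi-square units per degree of freedom and were kept apart as distinct libraries. Precision is limited by this replicate spread more than by counting. Members and lists were chosen with earlier results of these data known. Beyond the members, up to 3 genes of each list were named per comparison, those with the largest change among called genes of 5 CPM or more whose groups did not overlap; partners and counterparts of members (Idh3b, Idh3g, Dld, Suclg2, Sdhb) were named beside them after their values were seen. DESeq2 1.42.0, other scalings, filters, sample sets and a replicate block were alternatives. Some genes of the lists and of the nearest profiles are not reported here. The promoter letters are from RefSeq, build GRCm38.p6.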

Additional observations from a re-analysis of the deposited data

How the results depend on the processing

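Each of the 48 member fold changes was recomputed under 13 alternatives, and 569 of the 624 recomputed values kept their direction and their side of the threshold, while 26 had the opposite sign. Calls of Glud1, Dlst, Ogdh and Idh3a for added AOA and for added Asp held under all 13. With library size alone, 3 members were called for HT-DNA against mock in place of 5. Under the same setting Cs at -0.0147, Idh2 at -0.102 and Idh3a at -0.0937 had the opposite sign in HT-DNA+AOA against mock, where the scaling itself moved the median of all genes. The other sign changes were in differences that did not pass under either setting. With library size alone, they were Cs at -0.0253, Idh2 at -0.0253, Suclg1 at -0.00263 and Fh1 at -0.0168 for added AOA, Idh2 at 0.0141 for added Asp, and Fh1 at -0.0555 in HT-DNA+AOA+Asp against mock. In that last comparison Fh1 was also at -0.000815 with DESeq2, -0.000639 with RLE scaling, -0.00784 with the filter of 1 CPM and -0.00769 with only the groups compared. For Dlst in HT-DNA+AOA+Asp against HT-DNA the values were -0.00455 with DESeq2, -0.00420 with RLE scaling, -0.00237 with no filter and -0.00571 with only the groups compared. Leaving out 1 library gave ranges that crossed 0: for Idh2 from -0.0345 to 0.0173 in HT-DNA against mock, from -0.00129 to 0.0560 in HT-DNA+AOA against mock and from -0.0443 to 0.00394 in HT-DNA+AOA+Asp against mock. Those of Fh1 ran from -0.00378 to 0.0735 for added AOA and from -0.00885 to 0.0316 in HT-DNA+AOA+Asp against mock, and that of Dlst from -0.0137 to 0.0139 in HT-DNA+AOA+Asp against HT-DNA. The cause was not tested. In HT-DNA+AOA against mock, Cs and Fh1 also lost their calls without mock replicate 1 or 2 and without HT-DNA+AOA replicate 1. Of the 13 alternatives there, 7 kept the call of Cs and 8 that of Fh1. For HT-DNA+AOA+Asp against HT-DNA, leaving out 1 library moved the count of all genes called from 2719 to between 1689 and 2889, with 0 members called each time; it was 1712 and 1689 without HT-DNA replicate 1 or 2, and 1802 and 1728 without HT-DNA+AOA+Asp replicate 2 or 3. Without 1 library, the members called ranged from 5 to 6, 4 to 4, 4 to 6, 4 to 6 and 5 to 6 in the other comparisons. In the same order, all genes called ranged from 5175 to 5806, 6956 to 7395, 7373 to 7844, 8453 to 8678 and 4055 to 4438. With all libraries they were 6023, 7646, 8039, 8991 and 4976. The replicate numbers did not pair the samples: deviations of same-numbered libraries correlated at -0.151 to 0.0456, and 0 of 12 libraries were closest to their own number. With the replicate block, 5729, 7377, 7781 and 2248 genes were called in the 4 treatment steps against 6023, 7646, 8039 and 2719 without it, and no member call changed. At this spread between libraries, no member difference under 0.10 on the log2 scale passed without a change of setting.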

Other observations

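Of 15 genes of assembly, lipoylation and mitochondrial regulation, all measured, 5 rose and 3 fell under HT-DNA, 2 rose and 1 fell with AOA, and 2 rose and 5 fell when Asp was added. Over all genes 41.0%, 52.0% and 54.7% were called in the same order, so with AOA this list was below the background. Ppargc1a, a coactivator of mitochondrial gene programmes, fell under HT-DNA from 13.6 ± 0.829 to 6.51 ± 0.655 CPM (log2 fold change -1.07 with SE 0.11, edgeR adjusted p = 1.11e-07, n = 3). It was at 7.56 ± 1.08 CPM with AOA and at 17.7 ± 1.71 CPM with AOA and Asp, above both HT-DNA (1.45, SE 0.11, edgeR adjusted p = 2.63e-08) and HT-DNA+AOA (1.23, SE 0.11, edgeR adjusted p = 3.60e-09). For HT-DNA+AOA+Asp against HT-DNA, 0 of the 8 TCA members passed the edgeR test, where 18.5% of all genes were called. A link between Ppargc1a and the members was not tested. Esrra, a nuclear receptor that works with that coactivator, fell with AOA from 58.4 ± 4.37 to 36.8 ± 2.40 CPM (-0.67, SE 0.061, edgeR adjusted p = 6.97e-09) and was at 51.1 ± 1.07 CPM with AOA and Asp.

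Among the smaller genes of that list, Lipt1, of lipoate transfer, rose under HT-DNA from 5.72 ± 0.325 to 7.77 ± 0.343 CPM (0.44, SE 0.12, edgeR adjusted p = 0.00614), and Sdhaf1, an assembly factor of succinate dehydrogenase, from 9.45 ± 1.36 to 12.6 ± 1.01 CPM (0.42, SE 0.11, edgeR adjusted p = 0.00484). Ppargc1b, a relative of Ppargc1a, rose with AOA from 28.4 ± 2.34 to 34.9 ± 2.27 CPM (0.30, SE 0.068, edgeR adjusted p = 0.000893).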
